A study of Mus musculus with 4 samples.

Results

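Interferon-responding progenitors are the few bone marrow progenitor cells of this data set whose RNA carried many transcripts of interferon-stimulated genes. A cell was counted as a member when its unique molecular identifiers (UMIs, 1 per captured RNA molecule) for Ifit1, Rsad2, Ifit3, Cxcl10, Usp18 and Oasl2 summed to 5 or more, with at least 2 of these 6 genes detected. That gate took 122 of 8883 cells, and the other 8761 are called the remaining cells. Because the gate reads interferon genes, every contrast between members and remaining cells is a description and carries no test.

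The cells were lymphoid-primed multipotent progenitors (LMPPs), which give rise to lymphoid and myeloid but few megakaryocytic and erythroid cells, sorted from C57BL/6 bone marrow and profiled as single cells in 10x Genomics droplets. There was 1 library per group: RBPJ uninduced, in which RBPJ, the DNA-binding partner of the activated Notch receptor, was deficient and not restored; RBPJ 3 days induced and RBPJ 6 days induced, in which doxycycline switched an RBPJ gene on in otherwise deficient mice; and the control. Doxycycline was injected into the peritoneum (2 mg/ml) before drinking water carried it (1 mg/ml), and the same treatment text stands with all 4 libraries, so it is not stated whether uninduced and control mice received it. The promoter driving RBPJ, the way it was removed, the genotype of the control and the number, age and sex of the mice are not given in the sources used here. With 1 library per group, a difference between libraries compares those libraries and cannot be told apart from differences between mice or preparations.

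Cells that meet type I interferon signal through the receptor pair IFNAR1 and IFNAR2 and the kinases JAK1 and TYK2. STAT2 and IRF9 then act in a complex that binds interferon-stimulated response elements near the start sites of many genes, whose products degrade viral RNA, block translation and membrane fusion, or tag proteins with the ubiquitin-like ISG15. Interferon gamma acts through a separate receptor, and its target genes carry gamma-activated sites. In blood-forming tissue, stem and progenitor cells are known both to carry a baseline of interferon-stimulated transcripts and to react to interferon.

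Start regions of some of these genes carry the letters of such response elements, and a few are shown here because they belong to gate genes (Ifit1, Rsad2, Cxcl10) or to genes outside the gate that were higher in the members and whose promoters hold the motif (Isg15, Ifitm3, Bst2, Igtp, Gbp7). Other promoters of higher genes, among them those of Irf7, Cmpk2, Ifi44 and Herc6, hold no match. The promoter sequences are RefSeq's, on GRCm38.p6, and run 5′ to 3′ on the gene's own strand. Capitals mark the motif searched on both strands, GAAA, any 2 bases and GAAA again, which reads TTTC, any 2 bases and TTTC where it lies on the other strand, and overlapping matches run together.
Isg15 (chr4:156200850-156200921, minus strand): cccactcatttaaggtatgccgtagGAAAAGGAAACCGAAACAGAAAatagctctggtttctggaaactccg
Ifit1 (chr19:34640760-34640838, plus strand): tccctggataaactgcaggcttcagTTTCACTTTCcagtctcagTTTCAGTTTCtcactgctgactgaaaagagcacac
Rsad2 (chr12:26456538-26456597, minus strand): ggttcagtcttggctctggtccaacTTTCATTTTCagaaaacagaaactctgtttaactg
Cxcl10 (chr5:92349068-92349127, minus strand): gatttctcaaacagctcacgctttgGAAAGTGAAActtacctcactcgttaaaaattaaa
Ifitm3 (chr7:141010695-141010767, minus strand): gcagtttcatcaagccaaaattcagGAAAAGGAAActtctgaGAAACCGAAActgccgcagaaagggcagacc
Bst2 (chr8:71537562-71537627, minus strand): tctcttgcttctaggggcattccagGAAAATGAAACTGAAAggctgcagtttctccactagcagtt
Igtp (chr11:58199497-58199556, plus strand): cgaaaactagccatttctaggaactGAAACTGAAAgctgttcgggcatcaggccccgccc
Gbp7 (chr3:142530258-142530317, plus strand): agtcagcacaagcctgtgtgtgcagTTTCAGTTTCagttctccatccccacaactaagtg

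Isg15 held 3 overlapping matches, the first of them 78 bases before the start site. In the window from 250 bases before to 50 bases after the start, the motif stood in 21 of the 45 promoters matched among the 64 genes (1.21% of 5289, by a rule given below) that were higher in the members, which is 46.7%. It stood in 3.44% of all 32851 promoters of that table. Among the gate genes, 4 of 5 matched promoters held it, and Oasl2 did not. The letters of a gamma-activated site, TTCNNNGAA, stood in 10 of the same 45 promoters (22.2%), in 0 of the 5 gate promoters and in 8.30% of all promoters. These are matches of letters in a fixed window and not measured binding sites. The 64 genes follow from a gate on interferon genes, so their share of the motif is a description and no independent support. The 45 are 1 promoter per gene and include near copies such as Trim30a and Trim30d. The 32851 are all promoters, of measured genes or not.

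Members made up 1.41% of the uninduced cells (39 of 2769 cells, 95% exact binomial interval 1.00 to 1.92%), 1.47% of the 3-day cells (19 of 1292, 0.888 to 2.29%), 1.22% of the 6-day cells (26 of 2129, 0.799 to 1.78%) and 1.41% of the control cells (38 of 2693, 1.00 to 1.93%). The 4 shares lie within each other's intervals, so no difference between libraries was detectable at this number of cells. Intervals here and below cover counting error only, not the variation between mice.

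**Figure D1:**
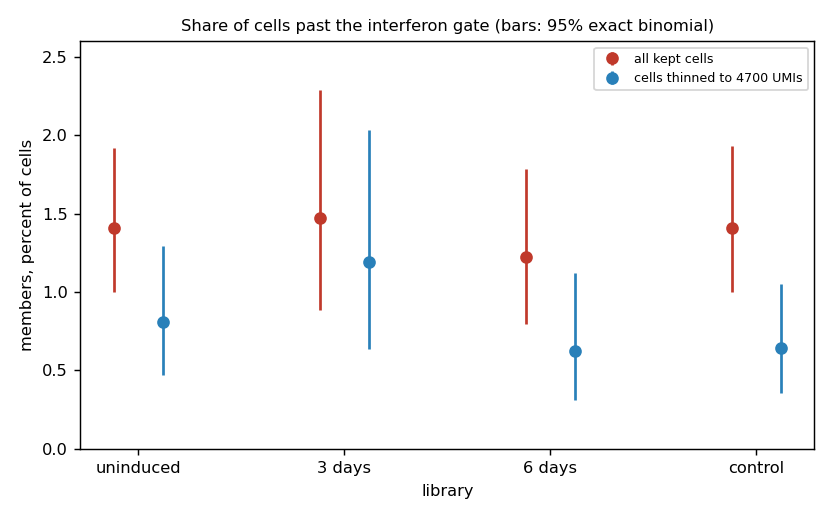
Share of cells past the interferon gate in each library, as a percent of cells, for all kept cells (red) and for cells thinned to 4700 UMIs each (blue). Bars are 95% exact binomial intervals, and the intervals of the 4 libraries overlap in both versions, with shares from 1.22% to 1.47% in all kept cells.

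Depth bears on a gate that counts molecules. The libraries held 20952799, 10647894, 17455692 and 23504158 UMIs in kept cells of the uninduced, 3-day, 6-day and control groups. Members had a median of 5919 UMIs against 6780 in remaining cells in the uninduced library, 7162 against 7642 at 3 days, 8362 against 7345 at 6 days and 8592 against 7905 in control. When each cell was thinned to 4700 UMIs and shallower cells were left out (676, 204, 374 and 351 cells), 17 of 2093 uninduced, 13 of 1088 3-day, 11 of 1755 6-day and 15 of 2342 control cells still passed, shares of 0.812, 1.20, 0.627 and 0.641%. Of the members, 4 uninduced, 1 3-day, 3 6-day and 3 control cells had over 2 times their library's median UMIs, 10.3, 5.26, 11.5 and 7.90% of members against 6.89, 4.09, 6.85 and 5.35% of remaining cells. Possible doublets were kept, and their part in the results was not tested.

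Most members stood only a little above the gate, and a few stood far above it. The gate sum had a median of 7 UMIs in uninduced, 11 in 3-day, 7 in 6-day and 7 in control members, and the highest single cells reached 98, 105, 34 and 20 UMIs. Members with exactly 5 UMIs numbered 23, and 66 remaining cells had 4. At this edge Isg15 stood at 218 CPM (counts scaled to 1000000 UMIs, summed over the cells) in the 23 members and 175 CPM in the 66 cells just outside. Its intervals, 160 to 288 CPM and 143 to 211 CPM, overlap. Irf7 stood at 222 CPM (164 to 294) in the same members and 130 CPM (103 to 162) in the cells outside. A further 3 cells had 5 or more UMIs but in 1 gene only and were not taken. All 6 gate genes were detected in 9 members, 5 in 27, 4 in 30, 3 in 42 and 2 in 14.

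Each gate gene was read in some members and missing from others. Oasl2, of the oligoadenylate synthetase-like family, had a UMI in 36 of 39 uninduced, 16 of 19 3-day, 24 of 26 6-day and 36 of 38 control members. Ifit1, whose product binds foreign RNA caps, had one in 31, 17, 20 and 30 members. Cxcl10, a chemokine that draws CXCR3-bearing T cells, had one in 15, 10, 7 and 9. Oasl2 was the most counted gate gene in 31 members, Ifit1 in 28, Rsad2 (viperin, which makes a chain-terminating nucleotide) in 17, Cxcl10 in 10, Usp18 (which removes ISG15 and quiets IFNAR2) in 8 and Ifit3 in 4, with ties in 24.

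Free RNA can put UMIs of these genes into droplets. The 6 gate genes together stood at 1525 CPM in uninduced, 2594 in 3-day, 1090 in 6-day and 798 in control members, against 49.1, 49.0, 45.1 and 41.9 CPM in remaining cells. Barcodes of 10 to 100 UMIs, taken as a reading of free RNA, held 79.6, 79.2, 56.3 and 60.4 CPM, above the remaining cells taken as a whole. The gate itself asks for a minimum of these UMIs, so the members' higher level follows from the rule. The part of free RNA in the results was not tested. Members held 31.4% of all gate UMIs of the uninduced cells, 45.4% at 3 days, 24.95% at 6 days and 24.2% in control.

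Members carried the marker genes of the sorted progenitors. Flt3, the receptor that marks LMPPs, stood at 184, 328, 177 and 276 CPM in uninduced, 3-day, 6-day and control members, against 191, 206, 201 and 222 CPM in remaining cells. Cd34, a surface sialomucin of stem and progenitor cells, stood at 359, 541, 515 and 480 CPM in members, against 456, 468, 409 and 484 CPM in remaining cells. Dntt, the template-independent polymerase of lymphoid-primed cells, stood at 530, 1172, 743 and 890 CPM, against 669, 824, 844 and 768 CPM. None of the 10 multipotent progenitor genes was 2-fold higher or lower under the rule used below, and their median log2 ratio of members over remaining cells was 0.05. Defining markers of T cells (Cd3e, Cd3d, Cd3g), B cells (Cd79a, Ms4a1, Pax5), plasmacytoid dendritic cells (Siglech) and conventional dendritic cells (Itgax, Clec9a) were at 0 UMIs in all members. Depth limits these zeros, since 3 UMIs are 7.74 to 18.2 CPM in the members of 1 library, and the remaining cells' levels of these genes are not given. Other genes of these lists were present. The T, NK and innate lymphoid list summed to 148, 194, 114 and 132 CPM in uninduced, 3-day, 6-day and control members. Remaining cells held 172, 191, 150 and 172 CPM of it. The B cell list summed to 39.5, 30.4, 59.1 and 23.2 CPM in members, against 41.8, 41.5, 45.1 and 34.1 CPM. Both dendritic lists summed higher in the members. The 8 plasmacytoid genes, which include the interferon-stimulated Bst2, summed to 939, 790, 929 and 779 CPM in uninduced, 3-day, 6-day and control members, against 547, 540, 555 and 526 CPM in remaining cells. All 4 measured had a mean ratio above 1-fold, with a median log2 ratio of 0.11. The 9 conventional dendritic cell genes, which include Flt3 and MHC class II genes, summed to 672, 705, 503 and 635 CPM, against 527, 422, 438 and 487 CPM, again with 4 of 4 above 1-fold and a median of 0.50. The part of such cells in the results was not tested.

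Members were spread over most clusters. The cells were clustered without interferon genes into 16 clusters, 14 of which held members. Of the 122 members, 120 lay outside the neutrophil-, monocyte- and erythroid-like clusters. Among the clusters that held these 120, only the lymphoid one led by Ly6d was named from the marker lists. The cluster led by Ltb, Hlf and Ifitm1 held 23 members of 1391 cells (1.65%), and the cluster led by the mitotic genes Ube2c, Ccnb1 and Cdc20 held 18 of 1245 (1.45%). The lymphoid cluster led by Ly6d, Ebf1 and Il7r held 9 of 515 (1.75%, 0.802 to 3.29%). The highest share outside the neutrophil-, monocyte- and erythroid-like clusters was 6 of 235 (2.55%, 0.943 to 5.47%). It stood in the cluster led by Hist1h2bc, Hist1h1c and Ccnb2, which had the gate gene Ifit1 and Ifi27l2a among its leading genes. The lowest shares among large clusters were 2 of 600 (0.333%, 0.0404 to 1.20%) in the cluster led by Ung, Atf3 and E2f1 and 1 of 386 (0.259%, 0.00656 to 1.44%) in the cluster led by Ctsg and Mpo, granule protein genes of myeloid progenitors. The other 2 members, both of the uninduced library, lay in a neutrophil-like cluster led by S100a8 and a monocyte-like cluster led by Ly6c2. The 8 neutrophil markers summed to 9701, 103, 63.4 and 46.5 CPM in uninduced, 3-day, 6-day and control members, against 3347, 4090, 2898 and 973 CPM in remaining cells, and 1 cell held 99.4% of the uninduced members' sum. The 12 monocyte and macrophage markers summed to 682, 322, 241 and 292 CPM, against 346, 458, 349 and 226 CPM, with Adgre1 and C1qc at 0 in the members.

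Barcodes shared between libraries numbered 2 to 17 per pair, 2 members carried a barcode also seen among the cells of another library, and no barcode was a member in both.

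Outside the gate, the genes that stood highest in the members were again interferon-stimulated. A gene was counted as higher or lower when it differed at least 2-fold, on the scale of CPM + 5, in each of the 3 libraries with 20 or more members (uninduced, 6 days and control), at a minimum of 20 CPM in members or remaining cells pooled over the 4 libraries. Of 5289 genes, 64 were higher (1.21%) and 5 were lower (0.0945%), and 52 of the 64 belonged to 9 lists of interferon genes. The gate selected for this, so the counts are a description. Of the 64, 37 reached the minimum only through the members and had to differ, and with the minimum set in the remaining cells alone 27 of 4880 genes were higher. The 3-day library, with 19 members, had no part in the 2-fold condition, but its counts entered the pooled minimum and its members passed the same gate. There 58 of the 64 were also 2-fold higher and all 64 were above the remaining cells, again a description. The share of all 5289 genes that did so there is not given. The median log2 ratio over all genes was −0.03. Without the neutrophil-, monocyte- and erythroid-like clusters 65 genes were higher. Genes named below by a rule set out with the processing stand beside others chosen after their values were seen, among them Mx1, Rtp4, Xaf1, Ifitm3, Bst2 and Ly6e.

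Isg15 (chr4:156199424-156200818 on GRCm38, minus strand) had the highest mean ratio on the scale of CPM + 5. By CPM alone, Ifi204 had higher ratios (51.8, 31.8, 52.0 and 77.6-fold), from 5 to 16 member UMIs a library. Isg15 stood at 794, 948, 439 and 307 CPM in uninduced, 3-day, 6-day and control members, against 35.2, 38.6, 30.4 and 27.3 CPM in remaining cells. That is 22.5-fold (19.4 to 26.1) by CPM, 24.5-fold (20.3 to 29.6), 14.4-fold (11.6 to 17.9) and 11.2-fold (9.16 to 13.7). These intervals count molecules from 19 to 39 cells a library, so differences between the libraries' folds were not tested. A gate of 5 UMIs also asks for more gate CPM in shallower cells, and the members' median depths were 5919, 7162, 8362 and 8592 UMIs. Isg15 was read in 35 of 39, 19 of 19, 21 of 26 and 31 of 38 members, and no single cell held more than 16.4% of a library's member UMIs.

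**Figure D2:**
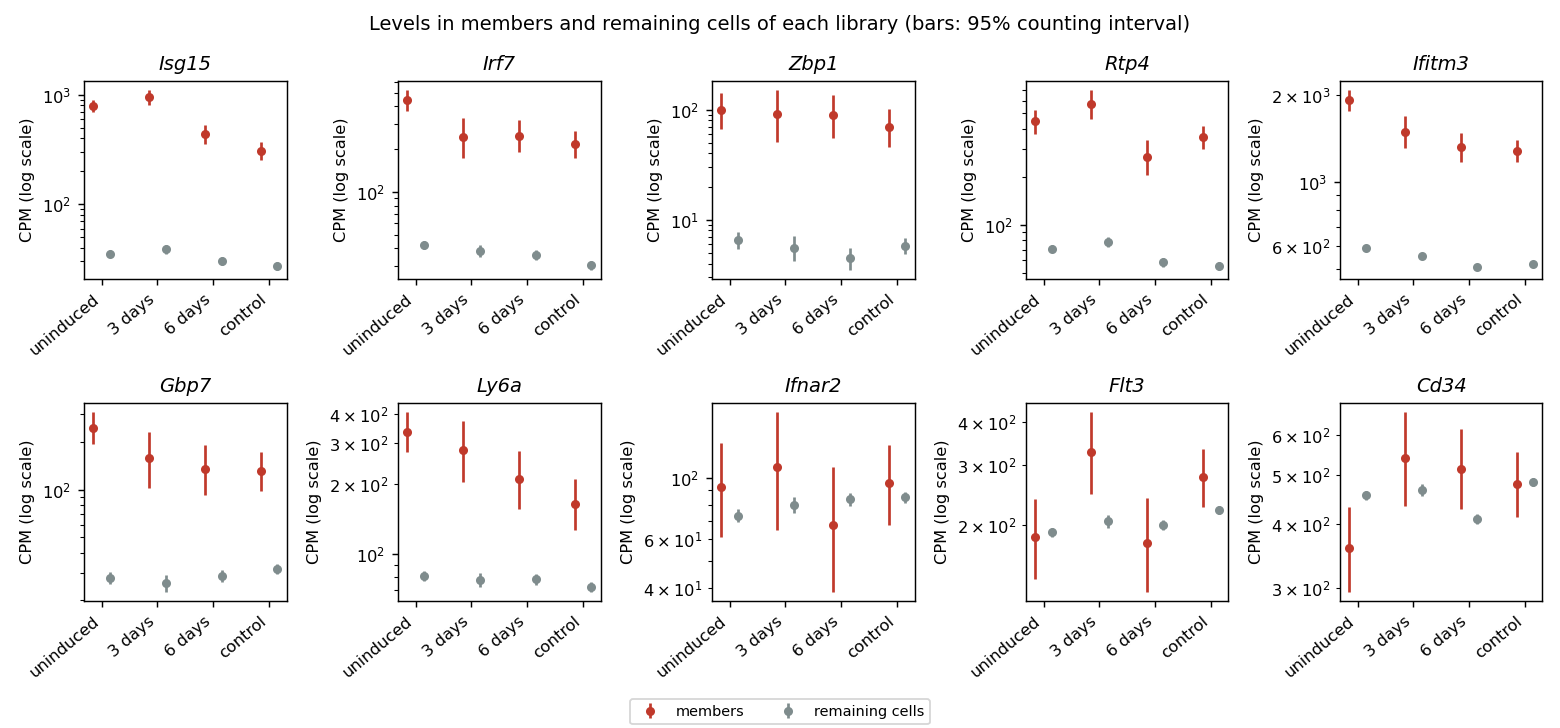
CPM (log scale) of 10 genes in members (red) and remaining cells (grey) of each library, with 95% counting intervals. The 7 interferon-stimulated genes Isg15 to Ly6a stand higher in the members of all 4 libraries, while the receptor gene Ifnar2 and the progenitor genes Flt3 and Cd34 lie within 2-fold of the remaining cells, for example Cd34 at 480 CPM in members and 484 CPM in remaining cells of the control library.

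Almost no cell carried a ligand transcript. Of 21 interferon genes, Ifnb1 and Ifna2 were read in 1 cell of 8883, a member of the 3-day library, with 7 UMIs of Ifnb1 and 3 of Ifna2. That cell had the highest gate sum of all (105 UMIs among 12813), with 50 UMIs of Rsad2, 23 of Ifit1 and 21 of Cxcl10. It also held 325 UMIs of Ccl5, a T cell and monocyte chemokine, 50 of Ccl4 and 6 of Tnf, but 1 of Irf7. Flt3 and Cd34 had 3 UMIs each in it, and it lay in the cluster led by mitotic genes. Ifnb1 lies at chr4:88522025-88522774, minus strand, and shares no 31-base word of its 3′ end with other genes, whereas 15.96% of the 31-base words at the end of Ifna2 also occur in other genes. Ifng had 0 UMIs in members and 21 in remaining cells, and Ifnz had 5 and Ifnk 1 in remaining cells.

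The receptors and their kinases did not differ in this way. None of the 6 measured genes of that list was 2-fold higher or lower. Ifnar2 stood at 92.2, 109, 67.6 and 95.5 CPM in uninduced, 3-day, 6-day and control members, against 73.0, 79.6, 83.5 and 85.1 CPM in remaining cells. Ifnar1 was low, at 9.88, 12.2, 29.6 and 33.6 CPM in members (2 to 13 UMIs per library) and 19.95, 18.9, 21.8 and 22.8 CPM in remaining cells. Ifngr1, the ligand-binding chain for interferon gamma, stood at 42.8, 48.6, 33.8 and 43.9 CPM, against 51.8, 58.8, 56.0 and 58.1 CPM.

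Among the interferon transcription factors, Irf7 was counted as higher. Irf7, which amplifies interferon production, stood at 441, 243, 249 and 217 CPM in members, against 42.2, 38.3, 36.0 and 30.5 CPM in remaining cells. Its fold was 10.5 (8.65 to 12.6) in the uninduced library, 6.35 (4.47 to 8.80) at 3 days, 6.92 (5.21 to 9.05) at 6 days and 7.12 (5.61 to 8.94) in control. Irf9 and Stat2, which act in the same complex, showed smaller values that were not counted. Irf9 stood at 72.4, 85.0, 54.9 and 80.0 CPM in members, against 37.1, 36.3, 34.1 and 36.2 CPM in remaining cells. Stat2 had 7, 2, 2 and 7 UMIs in members and, pooled over the libraries, lay at 16.5 CPM, under the minimum. Irf3, which acts upstream of interferon and is not itself strongly induced, stood at 32.9, 30.4, 33.8 and 36.1 CPM, against 34.8, 35.1, 35.2 and 33.7 CPM.

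Of 7 measured sensors of viral nucleic acid, 4 were higher: Zbp1, Ifih1 (MDA5), Dhx58 (LGP2) and Ddx58 (RIG-I), and all 4 reached the minimum only through the members. Zbp1, a sensor of Z-form nucleic acid, stood at 98.8, 91.1, 88.7 and 69.7 CPM in members, against 6.54, 5.53, 4.47 and 5.80 CPM in remaining cells. Ifih1 stood at 59.3, 91.1, 50.7 and 33.6 CPM, against 7.31, 8.11, 6.80 and 6.88 CPM. The DNA-sensing pair was not counted: Mb21d1 (cGAS) stood at 29.6, 24.3, 38.0 and 28.4 CPM, against 18.7, 22.9, 19.3 and 22.8 CPM, and Tmem173 (STING) at 42.8, 72.9, 71.8 and 56.8 CPM, against 40.6, 44.8, 39.8 and 43.1 CPM.

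Antiviral effectors formed the largest group. Of 55 measured effector genes, 31 were higher and none was lower, with a median log2 ratio of 1.45, and 18 of the 31 reached the minimum only through the members. Mx1, a dynamin-like GTPase gene, stood at 52.7, 42.5, 38.0 and 20.7 CPM in members, against 1.74, 1.62, 2.21 and 1.30 CPM in remaining cells. Cmpk2, a mitochondrial nucleotide kinase and the genomic neighbour of Rsad2, stood at 115, 182, 97.2 and 77.4 CPM, against 9.49, 10.5, 8.07 and 8.78 CPM. Both genes lay under the minimum in the remaining cells and reached it only through the members. Rtp4 stood at 445, 571, 266 and 354 CPM, against 71.0, 78.5, 58.3 and 55.5 CPM.

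Ifitm3, Bst2 and Ly6e, which remaining cells carried at a high level, differed by a smaller fold than Mx1 and Cmpk2. They were chosen after their values were seen. Effectors low in remaining cells were measured only where the members reached the minimum, so no general relation is drawn. Ifitm3, which blocks the fusion of viral with cell membranes, stood at 1920, 1494, 1318 and 1285 CPM in members, against 590, 555, 508 and 518 CPM in remaining cells, and was read in all 122 members. Bst2 (tetherin, which holds budding virus at the surface) stood at 553, 462, 507 and 356 CPM, against 181, 194, 167 and 157 CPM. Ly6e stood at 1017, 917, 828 and 661 CPM, against 558, 492, 489 and 465 CPM, and was not counted as higher. Oasl1 and Ifit2 were also not counted, each because of 1 library: Oasl1 stood at 46.1, 79.0, 38.0 and 5.16 CPM, against 3.83, 3.72, 3.83 and 3.81 CPM, and Ifit2 at 13.2, 60.7, 50.7 and 25.8 CPM, against 4.99, 3.91, 3.37 and 4.20 CPM.

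In the ISG15 conjugation pathway, Isg15, the ligase gene Herc6 and the conjugating enzyme gene Ube2l6 were higher, 3 of 4 measured, 1 of them reaching the minimum only through the members. The activating enzyme gene Uba7 stood at 46.1, 30.4, 50.7 and 36.1 CPM in members, against 27.0, 24.1, 27.6 and 27.0 CPM in remaining cells. All 5 measured genes of the p200 family of nuclear DNA-binding proteins were higher, 3 of them reaching the minimum only through the members. Ifi204 stood at 52.7, 30.4, 42.2 and 33.6 CPM, against 1.02, 0.954, 0.813 and 0.433 CPM, and Ifi203 at 616, 450, 566 and 436 CPM, against 181, 170, 171 and 186 CPM. Among guanylate binding proteins and immunity GTPases, which act on the membranes around intracellular pathogens, 7 of 9 were higher, 4 of them reaching the minimum only through the members. Iigp1 stood at 227, 122, 139 and 101 CPM, against 10.4, 10.0, 6.50 and 9.34 CPM, and Gbp7 at 247, 158, 135 and 132 CPM, against 27.7, 25.7, 28.7 and 31.7 CPM.

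Genes of antigen presentation by MHC class I lay slightly higher in the members, and none was 2-fold higher in each of the 3 libraries. Of 18 measured genes, 0 were counted, and the mean ratio was above 1-fold for all 18, with a median log2 ratio of 0.33. H2-T23, a non-classical class I gene, stood at 214, 158, 135 and 147 CPM in members, against 86.0, 69.4, 90.4 and 71.2 CPM in remaining cells. Tap1, a subunit of the peptide transporter, stood at 158, 122, 144 and 101 CPM, against 71.3, 73.8, 64.2 and 75.01 CPM. B2m, the shared light chain, stood at 3955, 4258, 3345 and 3035 CPM, against 3032, 3053, 2778 and 2640 CPM, so members exceeded the remaining cells of their own library in all 4.

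**Figure D3:**
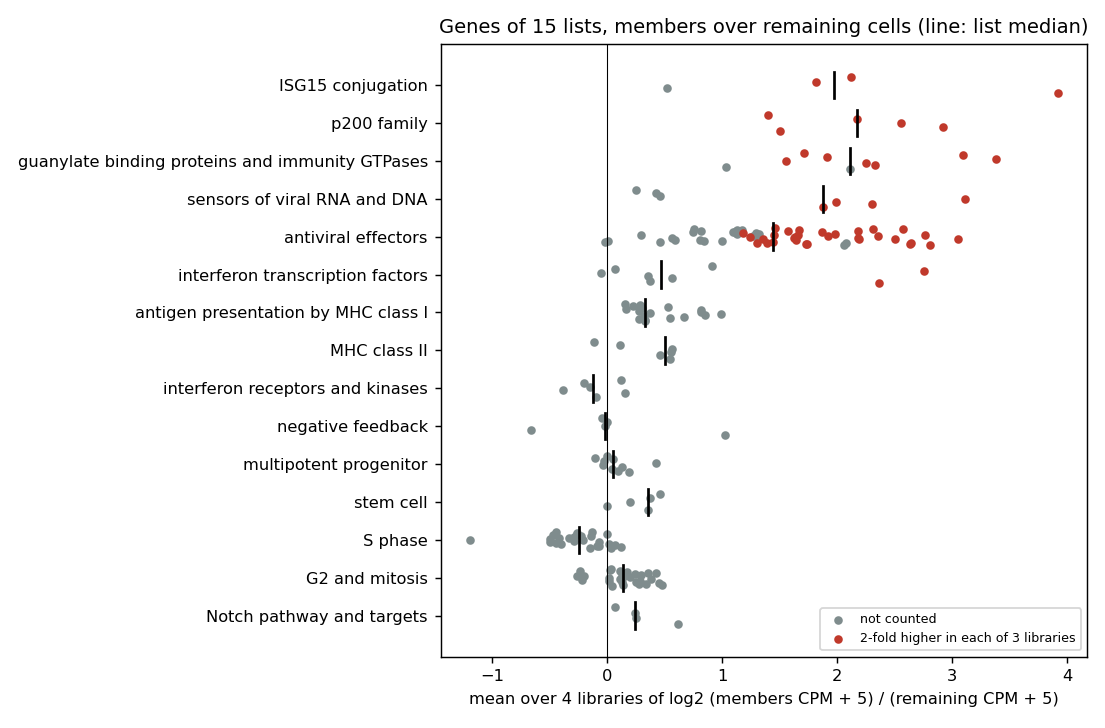
Mean over the 4 libraries of log2 of members' CPM + 5 over remaining cells' CPM + 5, 1 point per measured gene, for 15 lists. Red points are genes at least 2-fold higher in each of the 3 libraries with 20 or more members, and the black line is the list's median, which is 1.45 for antiviral effectors, 0.33 for MHC class I and 0.05 for multipotent progenitor genes.

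Negative feedback genes outside the gate stayed near the remaining cells. Of 5 measured, 0 were counted, with a median log2 ratio of −0.01. Socs1, which inhibits JAK kinases, had 5, 3, 11 and 6 UMIs in uninduced, 3-day, 6-day and control members, or 16.5, 18.2, 46.5 and 15.5 CPM, against 7.75, 7.54, 8.77 and 8.96 CPM in remaining cells. Without the member with most gate UMIs of each library, its mean log2 ratio was 0.39 in place of 1.02.

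Beyond the interferon lists, 10 of the 64 higher genes stood in no list, among them Serpina3g, a protease inhibitor gene. Serpina3g stood at 616, 255, 165 and 95.5 CPM in members, against 38.5, 30.1, 26.4 and 36.7 CPM in remaining cells. Ly6a, which encodes the stem cell antigen Sca-1, stood at 336, 279, 211 and 165 CPM, against 81.0, 77.8, 78.2 and 72.5 CPM. Both genes were among the 64 higher ones, which follow from the gate. The stem cell list had a median log2 ratio of 0.35 over 5 measured genes and none was counted.

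Cell cycle genes were not set apart by the 2-fold rule. None of 26 S phase and 28 G2 and mitosis genes was counted, with median log2 ratios of −0.24 and 0.14. The mean ratio was above 1-fold for 5 of the 26 and for 24 of the 28. The summed S phase list in members was 0.724, 0.858, 1.04 and 0.826-fold of remaining cells in the uninduced, 3-day, 6-day and control libraries. Per cell, S phase genes took a median of 7.22, 12.5, 12.1 and 11.1 UMIs per 10000 in members, against 14.7, 17.1, 14.3 and 16.4 per 10000 in remaining cells. The G2 and mitosis sum was 1.117, 1.198, 1.03 and 1.016-fold, with 14.7, 23.5, 22.5 and 20.4% of the members' sum in 1 cell. Per cell, its median was lower in members, at 10.45, 10.28, 10.19 and 8.85 per 10000 against 10.76, 11.78, 11.12 and 11.95. Uhrf1, a DNA methylation maintenance gene expressed in S phase, stood at 32.9, 0, 42.2 and 49.0 CPM in members, against 57.4, 54.1, 53.7 and 56.0 CPM in remaining cells. Its 0 at 3 days is 0 UMIs, and 3 UMIs there would be 18.2 CPM.

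The 5 lower genes were the haemoglobin genes Hba-a1, Hba-a2, Hbb-bs and Hbb-bt, and Ly6d, a marker of lymphoid commitment. Ly6d stood at 3.29, 60.7, 8.45 and 0 CPM in members, against 26.4, 11.5, 28.8 and 12.6 CPM in remaining cells, and all of its 3-day member UMIs came from 1 cell. Haemoglobin genes led the erythroid-like cluster, which held 25 cells and 0 members. Without the 133 cells of the neutrophil-, monocyte- and erythroid-like clusters only 1 gene was lower, and the mean log2 ratio of Hba-a1 was −0.23 in place of −3.05 and that of Hbb-bt 0.17 in place of −1.23. Haemoglobin transcripts also share most of their 3′ ends with one another, as do those of Oas1a, Phf11b, Pyhin1 and Tgtp2 among the higher genes with near copies, so their counts are uncertain.

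With the 4 libraries pooled, several genes outside the gate stood higher with each step in the gate count, and others did not. Over all 4 libraries, Isg15 stood at 21.9 CPM in the 6441 cells with 0 gate UMIs, 49.0 CPM at 1 to 2, 154 CPM at 3 to 4, 391 CPM at 5 to 9 and 855 CPM in the 42 cells with 10 or more. Irf7 stood at 27.3, 52.7, 135, 264 and 313 CPM over the same bins, and Ifitm3 at 511, 597, 879, 1350 and 1688 CPM. H2-K1 stood at 604, 653, 717, 716 and 808 CPM. Ifit2 differed little below the gate, at 4.07, 4.34 and 5.45 CPM, and stood at 16.2 and 64.7 CPM in the bins of 5 to 9 and of 10 or more. Ly6a stood at 68.4, 93.9, 161, 262 and 179 CPM and Ifi27l2a at 148, 197, 371, 491 and 407 CPM, with their highest values at 5 to 9. Flt3 stood at 201, 217, 219, 251 and 202 CPM, and Cd34 at 450, 472, 474, 426 and 528 CPM, so the progenitor genes showed no such order. The bins' median depths lay between 6882 and 8027 UMIs. Within libraries, Isg15 stood higher with each step in all 4. Irf7 was lower at 10 or more than at 5 to 9 at 3 days (180 against 270 CPM) and in control (188 against 212 CPM). It was higher there in the uninduced (542 against 382 CPM) and 6-day (316 against 220 CPM) libraries. Ifitm3 was level over these bins in control, at 1240 and 1235 CPM.

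**Figure D4:**
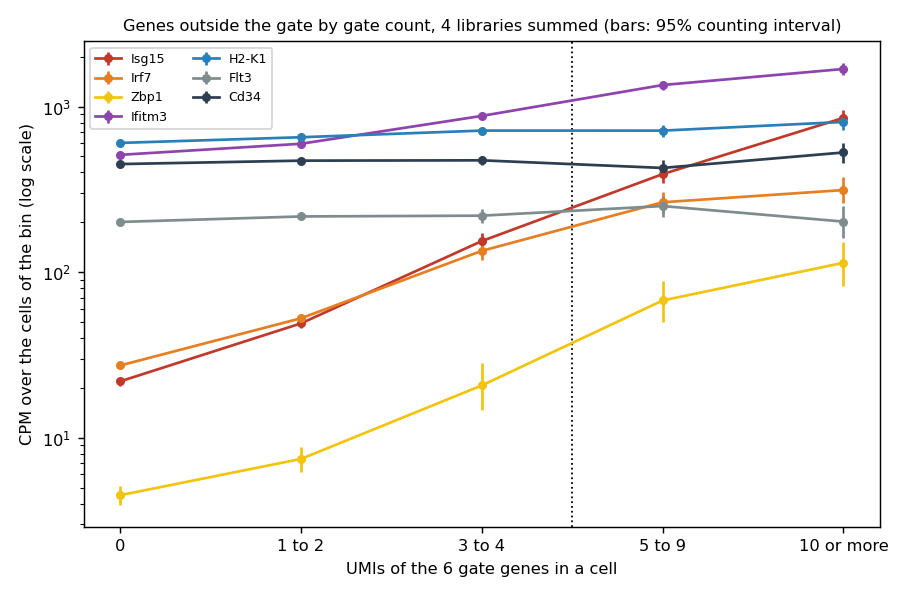
CPM (log scale) of 7 genes outside the gate in cells grouped by their summed gate UMIs, 4 libraries together, with 95% counting intervals; the dotted line marks the gate. Isg15 lies at 21.9 CPM in cells with 0 gate UMIs and 855 CPM in cells with 10 or more, while Flt3 lies between 201 and 251 CPM.

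Single cells showed the same range. The 75 effector genes outside the gate together took a median of 102 UMIs per 10000 in uninduced, 89.8 in 3-day, 70.5 in 6-day and 81.9 in control members, against 36.3, 34.9, 33.8 and 33.9 per 10000 in remaining cells. Of the 122 members, 84 lay above the 95th percentile of the remaining cells of their own library, and 1 lay below their median. Conversely, 216 remaining cells lay above the median of their library's members, and 83 of these had 0 gate UMIs.

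**Figure D5:**
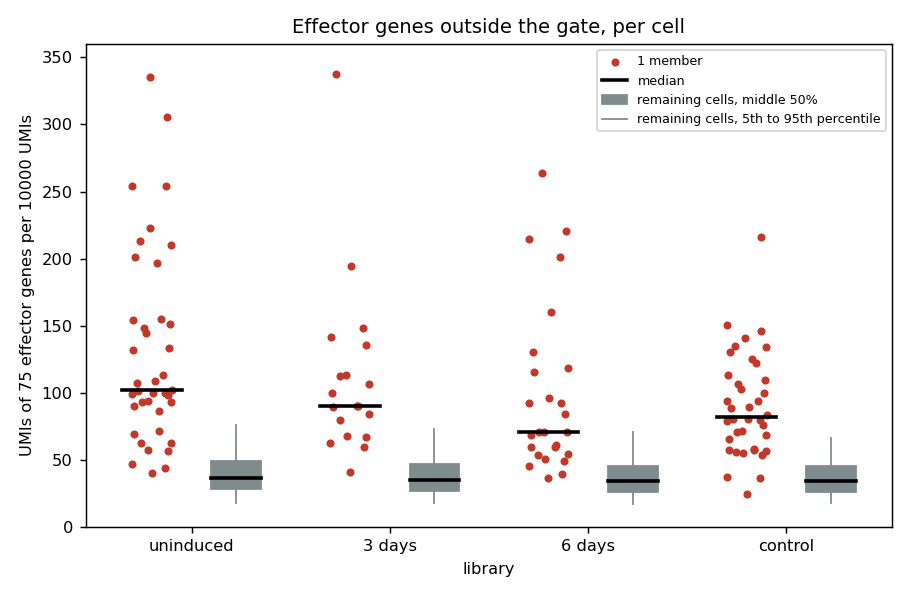
UMIs of 75 effector genes outside the gate per 10000 UMIs of a cell, for each member (red points, black line at the median) and for the remaining cells of the same library (grey box for the middle 50%, line from the 5th to the 95th percentile, black line at the median). The members' medians, from 70.5 to 102, lie above the remaining cells' 95th percentiles, or level with it at 6 days, and the points spread up to 338.

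Across the libraries, members carried more interferon transcripts in the uninduced and 3-day libraries than in the 6-day and control libraries. The 164 genes of the 9 interferon lists outside the gate summed to 25650 CPM (25080 to 26220) in uninduced members, 23830 (23090 to 24590) in 3-day, 20110 (19550 to 20690) in 6-day and 18700 (18270 to 19130) in control members. Remaining cells held 12250, 12040, 11410 and 11510 CPM. The intervals of the members do not overlap between any 2 libraries, but they count molecules, and each library's sum comes from 19 to 39 cells of uneven content. Gated after thinning to 4700 UMIs, the members held 28620, 27630, 17760 and 22670 CPM, so the 6-day library and not the control was then lowest.

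The members' part of a library's total differed by gene. Isg15 over all cells was 1.45-fold (1.31 to 1.59) in the uninduced library over control, and 1.29-fold (1.16 to 1.44) with the members left out. The members held 24.9%, 27.8%, 16.6% and 15.9% of all Isg15 UMIs of the uninduced, 3-day, 6-day and control cells. They held 13.3%, 9.07%, 8.69% and 10.7% of Irf7 and 2.99%, 3.01%, 2.37% and 2.65% of the summed interferon genes.

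The targeted gene and its best-known target were read in members and remaining cells of every library. Rbpj stood at 29.6, 893, 617 and 20.7 CPM in uninduced, 3-day, 6-day and control members, against 10.9, 502, 483 and 17.7 CPM in remaining cells. The induced libraries stood far above control in both, while uninduced cells stood below control among the remaining cells but not among the members, where Rbpj had 9 UMIs in the uninduced and 8 in the control library. At 3 days 42.9% of the members' Rbpj UMIs came from 1 cell. Hes1, a repressor gene switched on by Notch, stood at 23.1, 42.5, 165 and 119 CPM in members, against 17.9, 43.5, 129 and 89.2 CPM in remaining cells. Notch1 stood at 52.7, 60.7, 59.1 and 74.8 CPM, against 51.0, 43.0, 54.9 and 56.1 CPM, and none of the 4 measured Notch pathway genes was counted as higher or lower.

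Members also differed among themselves in which gate gene led. Cxcl10 was the most counted gate gene in 10 members, 3 uninduced, 5 of the 3-day and 2 of the 6-day library and none of the control, against 112 other members. The groups were cut by a gate gene, so the values are a description, and they come from few cells. Nfkbia, the inhibitor induced by NF-kB, stood at 518 CPM in the 10 and 199 CPM in the 112. Ccl4 stood at 1483 against 678 CPM and Gbp2 at 340 against 46.3 CPM, with 52.6% of the 10 cells' Gbp2 UMIs in 1 cell. Nfkbiz stood at 89.4 against 77.2 CPM, Ccl3 at 733 against 627 CPM, Ccl5 at 661 against 686 CPM and Tnf at 0 CPM (0 to 65.9) against 50.2 CPM (37.5 to 65.8). Antiviral effectors summed to 16210 CPM in the 10 and 8179 CPM in the 112. Flt3 stood at 232 and 237 CPM.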

How the data were processed

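Single-cell RNA was measured in 4 libraries of sorted LMPPs, 1 per group. The authors deposited, per the file headers, a matrix of raw UMI counts per library for all barcodes and a table of log2 values for the cells they kept. The submitters' processing notes name Seurat and mm10, with neither a version nor a role. Aligner and annotation are not given in the sources used here. Each of the deposited log2 values checked (400 genes per library) came, within 1e-06, from the matrix count over 1 factor per cell, with 1 added before the log; these tables only defined the cells. No further filter on cells was set, and no doublet caller was run.

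UMIs were summed over members and over remaining cells of each library and scaled to CPM by all UMIs of those cells. Log2 ratios compare CPM + 5, and folds compare CPM. Intervals at 95% are exact Poisson (levels), conditional exact (folds) and Clopper-Pearson (shares). No test was made, because cells of 1 library are not replicates. Clusters came from scanpy 1.11.5 and leidenalg 0.10.2 at resolution 1, with 2000 variable genes and 30 components, interferon genes left out. A cluster was named where 3 or more of its 10 leading genes came from the same marker list, and most clusters had no name. TMM factors came from edgeR 4.0.16, and the call rule was tested on simulated data. Named genes were the 12 highest and 6 lowest mean ratios, up to 3 highest and 1 lowest of each of 33 gene lists, and 15 set genes. The members and lists were chosen with earlier results of these data known. Promoters came from RefSeq (GRCm38.p6) and gene positions from GENCODE on GRCm38. A few genes are not reported here.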

Additional observations from a re-analysis of the deposited data

Results flagged for a closer look

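For 7 genes the fold of members over remaining cells was at least 2-fold up in 1 library and at least 2-fold down in another, on the scale of CPM + 5. These differences between libraries were not tested.

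Ccl5 was 62.4-fold higher in uninduced members and 83.7-fold higher in 3-day members than in remaining cells, and 0-fold (0 UMIs in members) at 6 days. One member held 291 of the 314 member UMIs of Ccl5 in the uninduced library, and the cell with Ifnb1 held 325 of 431 at 3 days. Without these cells the members stood at 82.7 CPM and 698 CPM, against 16.6 and 31.3 CPM in remaining cells.

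S100a8 was 2.53-fold in uninduced members and 0.0183, 0.0211 and 0.0308-fold at 3 days, 6 days and in control. S100a9 was 2.56-fold and 0.0424, 0.0176 and 0.082-fold, and Lcn2 4.44-fold and 0.0557, 0.0554 and 0.13-fold over the same libraries. Ltf was 5.35-fold in uninduced members, 0-fold at 3 days and 0.147-fold at 6 days. These are neutrophil granule genes, and 1 uninduced member lay in the neutrophil-like cluster. Without the neutrophil-, monocyte- and erythroid-like clusters, S100a8 stood at 47.0, 36.5, 29.6 and 15.5 CPM in uninduced, 3-day, 6-day and control members, against 20.9, 33.9, 26.5 and 11.2 CPM in remaining cells.

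Ctsg, a granule protease gene, was 3.41-fold in uninduced and 0.364-fold in control members. Ly6d was 5.31-fold at 3 days, where all 10 UMIs came from 1 member, and 0.125-fold in uninduced and 0-fold in control members.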

How the results depend on the processing

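No paired analysis was possible because there is only 1 library in each group. Shares of members in the uninduced, 3-day, 6-day and control libraries were 3.68, 3.87, 3.24 and 3.23% with a gate of 3 UMIs, and 2.56, 2.63, 2.21 and 2.15% with 5 UMIs per 10000. A gate of 8 UMIs gave 0.650, 0.929, 0.564 and 0.594%, and thinning gave 0.812, 1.20, 0.627 and 0.641%. The count of 64 higher genes was 39 with a pseudocount of 20 CPM, 28 with a minimum of 100 CPM, 27 with the minimum in the remaining cells alone, and 65 to 79 without 1 library each. The count of 5 lower genes was 1 with a pseudocount of 20 CPM, 11 with no minimum, 2 with a minimum of 100 CPM, 1 with remaining cells matched in UMIs, 1 without other cell types, 1 over all 4 libraries, and 8 to 13 without 1 library each. The gate of 8 UMIs could give no count, because no library held 20 such members (18, 12, 12 and 16). The 164 interferon genes summed to 28660, 25110, 22000 and 20870 CPM as a mean over cells, 28620, 27630, 17760 and 22670 CPM after thinning, 23000 CPM (3 days) and 17960 CPM (control) with TMM, and 24420 CPM in uninduced members without the member with most gate UMIs. TMM shifted all ratios by −0.11 at 3 days and at 6 days by −0.11. Over 98 genes, 699 of 784 alternative values moved by less than 1 SD between libraries, 84 by more, and 1 of a counted gene turned direction: Hbb-bt, at 0.17 without other cell types. Among genes not counted, 8 values of 7 genes changed sign, for example Cd34, at −0.03 with TMM in place of 0.05. The alternatives without the member with most gate UMIs, with the minimum in the remaining cells alone and over all 4 libraries were chosen after seeing the data. Depth limits what 19 to 39 members can show: 3 UMIs are 7.74 to 18.2 CPM in the members of 1 library.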
